A study of Mus musculus with 24 samples.

Results

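Neuroblastoma cells keep the identity of the immature sympathetic neuron through a small set of transcription factors, and 8 genes of that set were followed here across an RNA-seq series of Neuro2A cells. The members were Mycn, Myc, Phox2a, Hand1, Hand2, Gata2, Gata3 and Isl1, chosen by gene symbol from the 39253 rows of the deposited gene count table. All 8 had a row, and 7 passed the filter on low values (at least 0.5 CPM, a gene's counts scaled to a common library size, in at least 3 libraries), together with 13901 genes in all. Hand1 did not pass.

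Neuro2A is a mouse neuroblastoma line, here wild-type, and 24 libraries in 8 groups of 3 were read from it. In 6 of the groups the cells, collected at 48 hr, carried plasmids for an RNA-targeting CRISPR effector, RfxCas13d, its engineered high-fidelity variant HiFi-RfxCas13d or the single-protein effector DiCas7-11, each with either a crRNA (the guide RNA) against the mouse ataxin-2 transcript, called mATXN2, or a non-targeting crRNA, called NTG. The remaining groups were untransfected cells and, as positive control, cells that received an ataxin-2-targeting antisense oligonucleotide (ASO). For these groups the labels give no collection time. The dose and delivery of the ASO are not given in the sources used here, and no group received delivery reagent alone, so the ASO and its delivery cannot be told apart. The count columns abbreviate the arms otherwise than the sample labels do, with EV for NTG and another guide number for the mATXN2-targeting crRNA, and the labels were followed in every comparison of these arms. All groups came from 1 cell line. The study describes its replicates as biologically independent, while the labels do not say how they were separated, and the p-values measure the spread between these libraries.

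In sympathetic neuroblasts the homeodomain factor PHOX2A, the bHLH factors HAND1 and HAND2, the zinc-finger factors GATA2 and GATA3 and the LIM-homeodomain factor ISL1 occupy one another's regulatory regions and hold the noradrenergic programme in place. MYCN, whose gene is amplified in aggressive human neuroblastoma, and its paralogue MYC pair with MAX on E-box DNA and drive genes of ribosome production and growth, and tumours tend to express one of the pair at the expense of the other. The comparisons below ask how far each way of lowering ataxin-2 mRNA, and transfection with an effector plasmid and the NTG crRNA, moved these genes.

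The promoters of 3 members are shown because Isl1, Mycn and Hand2 each carry a difference described below, and because their upstream DNA differs in composition and in the letters that this class of factors binds. Each is the 250 bases before the annotated start in RefSeq on build GRCm38.p6, an older build than the GRCm39 used by the authors, and is written 5′ to 3′ on the strand of the gene. Capitals mark an E-box (CANNTG, the letters bound by bHLH factors such as HAND2 and MYC) or a GATA motif (AGATAA or its reverse complement TTATCT).
Isl1, chr13:116309689-116309938, minus strand: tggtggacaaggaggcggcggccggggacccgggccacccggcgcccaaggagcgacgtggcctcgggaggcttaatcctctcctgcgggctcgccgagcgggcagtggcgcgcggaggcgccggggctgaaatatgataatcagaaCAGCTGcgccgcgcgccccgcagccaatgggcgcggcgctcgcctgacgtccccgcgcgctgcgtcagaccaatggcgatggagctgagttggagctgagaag
Mycn, chr12:12941837-12942086, minus strand: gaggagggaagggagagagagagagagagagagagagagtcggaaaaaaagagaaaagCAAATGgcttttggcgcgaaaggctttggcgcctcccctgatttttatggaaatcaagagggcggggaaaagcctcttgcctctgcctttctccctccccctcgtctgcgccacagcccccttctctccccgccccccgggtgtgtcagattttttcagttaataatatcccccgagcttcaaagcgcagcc
Hand2, chr8:57320733-57320982, plus strand: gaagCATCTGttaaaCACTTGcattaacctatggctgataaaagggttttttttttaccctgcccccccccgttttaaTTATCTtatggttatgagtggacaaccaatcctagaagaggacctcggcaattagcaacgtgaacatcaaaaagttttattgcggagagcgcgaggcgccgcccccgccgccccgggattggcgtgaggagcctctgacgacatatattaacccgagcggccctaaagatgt

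The Isl1 window held 1 E-box, 103 bases before the start, and a GC content of 71.2%, against a median of 52.4% over 32851 promoter windows. Mycn held 1 E-box 192 bases before the start and 54.8% GC. Hand2 held 2 E-boxes and 1 GATA motif, which lay 172 bases before the start and shared 3 bases with a TAATTA homeodomain core, and its GC content was 49.2%. E-boxes stood in 66.2% of all windows on either strand, the GATA motif in 9.99% and TAATTA in 4.84%. Isl1 and Hand2 each held 2 CCAAT boxes, letters found in 33.8% of windows. Of the other members, Phox2a, Gata2 (2 starts) and Gata3 had windows with neither an E-box nor a GATA motif, and Hand1 and Myc had no entry in the table. Only AGATAA and its reverse complement were searched as the GATA motif, and other forms such as TGATAA were not. A match is a description of the letters, and nothing here measured binding.

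Library totals ran from 12665725 to 19857305 counts in untransfected and plasmid-transfected cells and from 21874644 to 22504999 with the ASO, so the ASO libraries were the deepest and depth moves with that comparison. Atxn2, the targeted transcript, stood at 121, 123 and 125 CPM in untransfected cells and at 48.9, 52.9 and 54.1 CPM with the ASO (log2 fold change −1.25, adjusted p = 1.65e-19, edgeR). Compared to the NTG crRNA, the mATXN2-targeting crRNA changed it by −0.10 with RfxCas13d (adjusted p = 0.178), −0.23 with HiFi-RfxCas13d (0.00157) and −0.20 with DiCas7-11 (0.00557) on the log2 scale. Of 10 neuronal and neuroblastoma markers, 8 passed the filter, among them Tubb3 at 324 to 423 CPM and Elavl4 at 304 to 435 CPM. The neurofilament genes Nefl and Nefm were near 0, at most 0.262 and 0.312 CPM. The summed CPM of the list ran from 1890 to 2261, with group means of 2231 in untransfected cells and 1894 with the ASO. It was lower in the NTG groups too (1992 to 2018), and 6, 5 and 4 of the 8 tested markers fell in the RfxCas13d, HiFi-RfxCas13d and DiCas7-11 NTG groups and 6 with the ASO, none rising. Of all tested genes, 11.3%, 20.9%, 21.9% and 42.7% were called in those comparisons, in either direction. Of the markers of other cell types, those of astrocytes summed to at most 0.638 CPM, of epithelium 0.748, of blood and microglia 2.28, of fibroblasts 8.52, of endothelium 10.1 and of oligodendrocytes 18.9 CPM. With the ASO the blood and microglia list went from a mean of 0.199 to 1.41 CPM, nearly all of it Cd68.

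The members covered more than 3 orders of magnitude. To compare genes, CPM was divided by the median length of their protein-coding transcripts in GENCODE M21, which gives CPM per kilobase. On that scale the mean over 24 libraries was 164 for Hand2, 104 for Myc, 70.8 for Gata2, 46.0 for Phox2a, 17.6 for Isl1, 7.53 for Mycn, 1.92 for Gata3 and 0.112 for Hand1. Without the length correction Gata2 (222 CPM) stood above Myc (187 CPM), and no other rank moved.

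Paralogues stood far apart in level in the HAND, GATA and MYC families. Of the HAND factors, which specify sympathetic neurons and the heart, Hand2 was among the most abundant transcripts, ranking 380 of 13901 genes by CPM, while Hand1 gave 0 to 8.12 counts per library. Hand1 was at 0 in 2 libraries, where 3 counts, the most that a count of 0 allows, would be 0.180 and 0.187 CPM. It totalled 82 counts over all 24 libraries, and its group sums ran from 2.87 in DiCas7-11 NTG to 15.2 in DiCas7-11 mATXN2. No fold is given for Hand1 at counts of this size.

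Of the GATA factors, zinc-finger proteins of blood and sympathetic development, Gata2 exceeded Gata3 in every library, by 45.8 to 107 times in counts. Gata4, a family member best known from heart and endoderm, was present at 37.6 CPM per kilobase, above Gata3, while Gata1, Gata5 and Gata6 did not pass the filter. Myc exceeded Mycn by 7.96 to 13.0 times in counts in every library, and the third paralogue Mycl stood at 0.238 CPM per kilobase. The LIM-homeodomain relatives Isl2 and Lhx4 were at 2.97 and 1.70 CPM per kilobase, below Isl1.

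**Figure D1:**
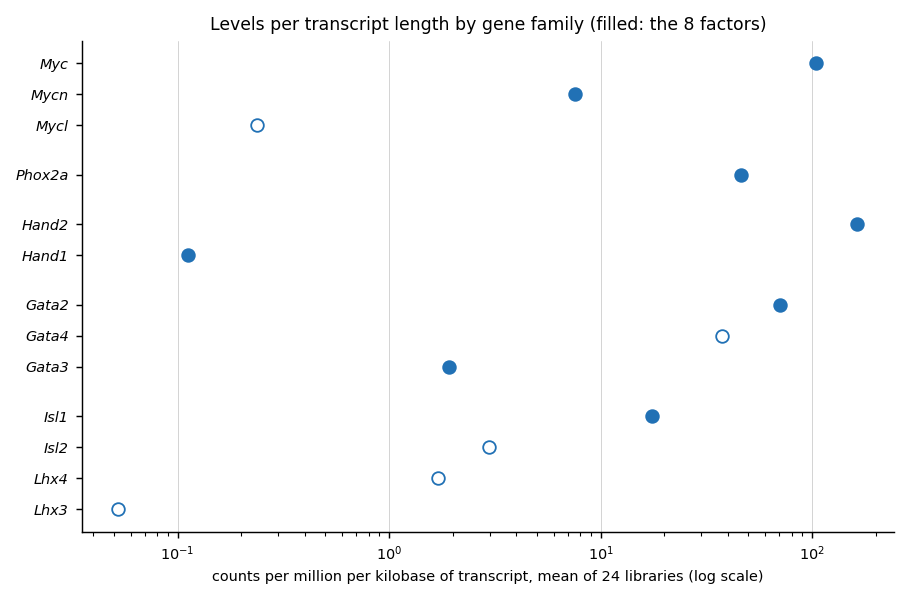
Mean level over 24 libraries, in CPM per kilobase of transcript on a log axis, for the members (filled) and measured relatives of the same families (open), with Gata1, Gata5 and Gata6 left out as below the filter. Hand2 (164) and Myc (104) lie farthest right, and Hand1 (0.112) is the lowest filled point.

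Across the 8 groups the levels moved little. The highest group mean of Hand2 exceeded the lowest by 1.10 times (366 CPM in untransfected cells to 403 in DiCas7-11 mATXN2), that of Myc by 1.11 times (176 with the ASO to 195 in HiFi-RfxCas13d NTG), that of Phox2a by 1.13 times (70.3 in DiCas7-11 NTG to 79.5 in untransfected cells) and that of Gata2 by 1.14 times (207 in DiCas7-11 NTG to 236 in RfxCas13d NTG). The span was wider for Isl1, at 1.39 times (28.9 in untransfected cells to 40.1 with the ASO), Mycn, at 1.44 times (14.8 with the ASO to 21.3 in RfxCas13d mATXN2), and Gata3, at 1.63 times (2.98 in untransfected cells to 4.87 with the ASO). When the groups were ordered by mean, most neighbours in the order had overlapping libraries. For Myc, Phox2a and Gata2 none of the 7 neighbouring pairs was separate. For Isl1 and Gata3 the ASO stood apart from the next group, HiFi-RfxCas13d NTG, and for Mycn the ASO stood apart below DiCas7-11 mATXN2. Further down the Gata3 order, replicate 3 of RfxCas13d mATXN2 (4.81 CPM) still lay within the ASO range. Hand2 had 2 separate pairs, RfxCas13d mATXN2 over RfxCas13d NTG and the latter over HiFi-RfxCas13d mATXN2.

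**Figure D2:**
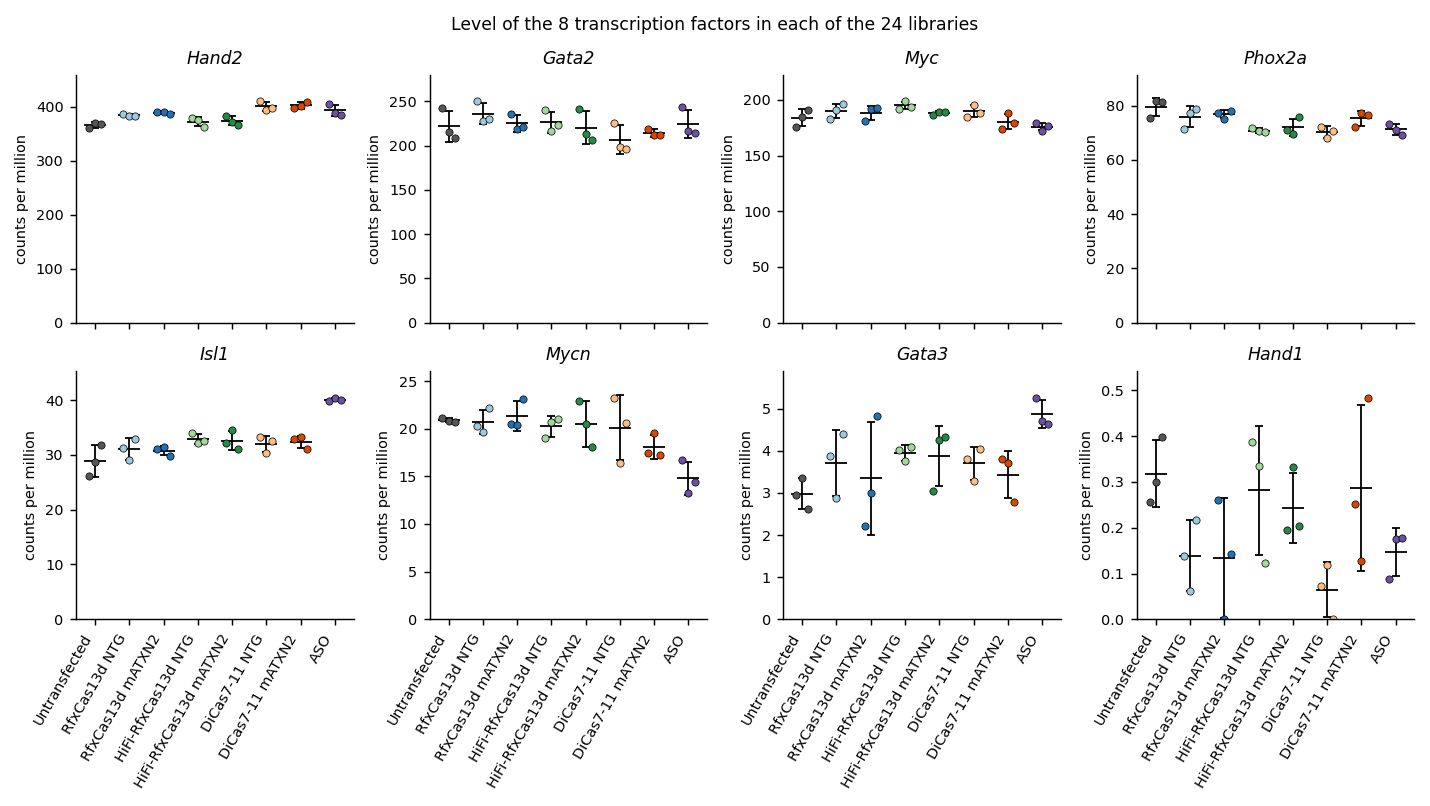
CPM of each member (1 panel per gene, own scale from 0) in the 24 libraries by group, with each point a library and the bars the group mean ± SD (n = 3). The ASO libraries lie highest for Isl1 (39.9 to 40.4) and include the lowest Mycn values, while Hand1 stays below 0.5 CPM throughout. For Gata3 they span 4.64 to 5.26, with replicate 3 of RfxCas13d mATXN2 (4.81) inside that range.

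The largest changes, those of Gata3, Mycn and Isl1, were seen with the ASO compared to untransfected cells. There 3 of the 7 tested members rose and 2 fell at an adjusted p below 0.05. In that comparison 42.7% of all tested genes passed the same threshold, against which the count of 5 of 7 has to be read. The libraries of the 2 groups did not overlap for those 5 members, as was the case for 51.8% of tested genes. The median log2 fold change of the members was 0.01, beside −0.002 over all genes.

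Isl1, the LIM-homeodomain factor of sympathetic, motor and sensory neurons, was at 26.1, 28.8 and 31.8 CPM in untransfected cells and at 39.9, 40.4 and 40.0 CPM with the ASO. The ASO libraries were also above every plasmid-transfected library, of which the highest held 34.5 CPM. The log2 fold change was 0.48 ± 0.06 (SE, n = 3 per group; adjusted p = 1.07e-07, edgeR), with a 95% interval from 0.36 to 0.60. Mycn was at 20.7, 20.8 and 21.1 CPM in untransfected cells and at 16.7, 13.3 and 14.5 CPM with the ASO. All ASO libraries were lower than the untransfected ones, by −0.50 ± 0.10 on the log2 scale (adjusted p = 1.86e-04, edgeR). One plasmid-transfected library, of DiCas7-11 NTG, reached down to 16.4 CPM and so lay within the ASO range.

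Gata3 was at 2.95, 3.36 and 2.63 CPM in untransfected cells and at 5.26, 4.71 and 4.64 CPM with the ASO. These rest on 32.7 to 55.8 counts per untransfected library and 104 to 121 per ASO library, so the rise of 0.70 ± 0.20 (adjusted p = 0.00521, edgeR) has a wide 95% interval, from 0.29 to 1.10. Replicate 3 of RfxCas13d mATXN2 held 4.81 CPM of Gata3 and so lay within the ASO range. The counts of Gata2 were 75.8 ± 10.0 times (SD, n = 3) those of Gata3 in untransfected cells and 46.1 ± 0.08 times with the ASO. The ASO ratio rests on 104 to 121 Gata3 counts per library, so this SD understates its counting error. Gata2 itself was at 242, 215 and 209 CPM in untransfected cells and 243, 216 and 214 CPM with the ASO, a log2 fold change of 0.01 with a 95% interval from −0.11 to 0.13.

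The other called members moved by small amounts. Hand2 was at 360, 370 and 368 CPM in untransfected cells and 406, 389 and 385 CPM with the ASO (0.10 ± 0.02 on the log2 scale, adjusted p = 9.80e-04). Phox2a, which activates the noradrenaline-synthesis gene Dbh, was at 75.5, 81.7 and 81.3 CPM in untransfected cells and 73.4, 71.1 and 69.4 CPM with the ASO (−0.16 ± 0.04, adjusted p = 0.00300, edgeR). For Myc the change was −0.06 (95% interval −0.13 to 0.01, adjusted p = 0.131), and Myc was called only without untransfected replicate 1 (−0.09, adjusted p = 0.0380). Myc counts were 8.83 ± 0.46 times those of Mycn in untransfected cells and 11.98 ± 1.16 times with the ASO (SD, n = 3). The ASO libraries were the deepest and their neuronal marker sum the lowest, as given above, and the part of either in these values was not tested.

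Exons of Hand2, Phox2a and Gata3 overlap genes on the other strand. Hand2os1, a long non-coding RNA divergent to Hand2, shares up to 246 bases with it in GENCODE M21, and Inppl1, a lipid phosphatase gene, shares up to 95 bases with Phox2a. Gm13256, which has no row in the count table, shares up to 93 bases with Gata3. On the same strand as Gata3, 9230102O04Rik shares up to 77 bases and held at most 2.01 counts per library. The library kit keeps strand, but the strand setting of the quantification is not given in the sources used here, so reads in the shared bases may not have been told apart. Hand2os1, at 54.6 to 74.4 CPM, rose by 0.40 ± 0.04 with the ASO (adjusted p = 3.01e-09) and by 0.32, 0.30 and 0.32 in the RfxCas13d, HiFi-RfxCas13d and DiCas7-11 NTG groups compared to untransfected cells (adjusted p = 2.59e-06, 7.02e-06 and 2.57e-06, edgeR). It thus passed in the NTG comparisons in which Hand2 did not as well as in the one in which it did. Inppl1 changed by −0.08 with the ASO (adjusted p = 0.118).

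**Figure D3:**
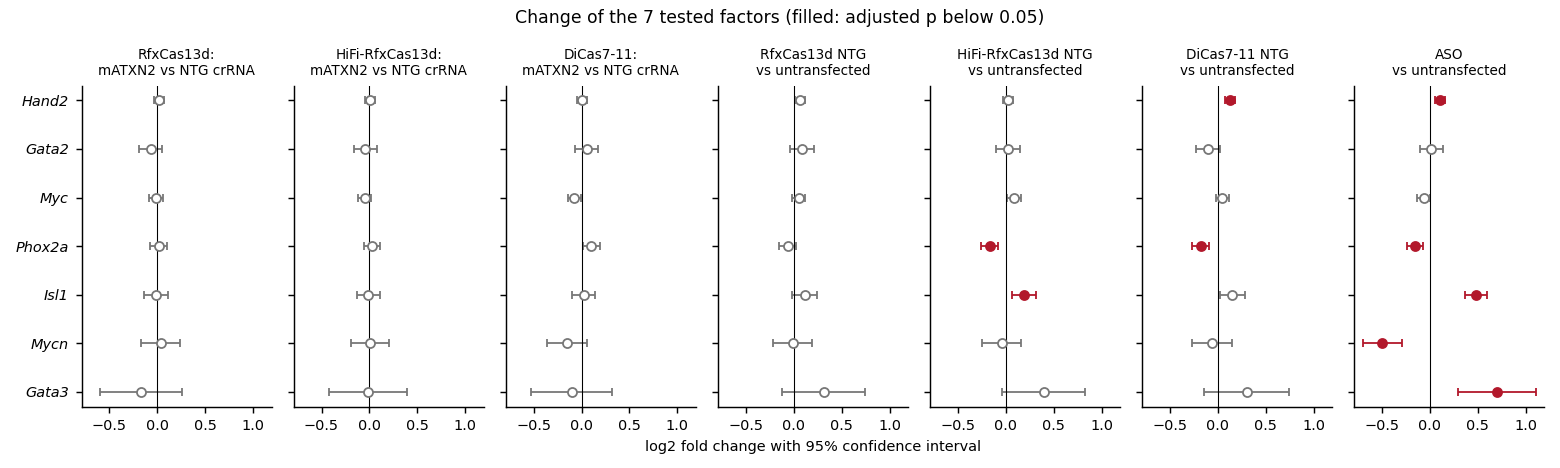
Log2 fold change (x axis) of the 7 tested members in 7 comparisons, with 95% confidence intervals, filled where the adjusted p was below 0.05. The mATXN2 against NTG panels hold no filled point, and the ASO panel holds 5, from −0.50 for Mycn to 0.70 for Gata3.

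Transfection with an effector plasmid and the NTG crRNA, read as each NTG group against untransfected cells, touched fewer members. By the labels no group received delivery reagent or plasmid without an effector, so delivery, plasmid, effector and crRNA cannot be told apart here. No member passed with RfxCas13d (11.3% of genes called), 2 with HiFi-RfxCas13d (20.9%) and 2 with DiCas7-11 (21.9%). These comparisons and that of the ASO share the same 3 untransfected libraries. Libraries did not overlap for 1 tested member with RfxCas13d (Hand2), 4 with HiFi-RfxCas13d (Phox2a, Isl1, Myc and Gata3) and 2 with DiCas7-11 (Phox2a and Hand2), beside 28.5%, 35.6% and 31.9% of all tested genes. The neuronal marker sum was lower in all 3 NTG groups, and its part in these results was not tested. In the NTG groups Phox2a was at 71.5, 77.4 and 78.8 CPM with RfxCas13d, 71.7, 70.6 and 70.2 CPM with HiFi-RfxCas13d and 72.2, 68.0 and 70.6 CPM with DiCas7-11, beside 75.5 to 81.7 CPM in untransfected cells. It fell by 0.17 ± 0.04 on the log2 scale with HiFi-RfxCas13d (adjusted p = 0.00621) and by 0.18 ± 0.04 with DiCas7-11 (0.00329, edgeR). With RfxCas13d the value was −0.06 ± 0.04 (adjusted p = 0.387) and the libraries overlapped.

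Isl1 rose by 0.19 ± 0.06 with HiFi-RfxCas13d NTG (34.0, 32.2 and 32.4 CPM, adjusted p = 0.0259), and the untransfected and NTG libraries did not overlap. That call was lost without untransfected replicate 1 (0.12, adjusted p = 0.207), untransfected replicate 2 (0.20, 0.0590) or HiFi-RfxCas13d NTG replicate 1 (0.17, 0.0939), and when only these 2 groups were fitted (0.19, 0.0597). With RfxCas13d and DiCas7-11 the Isl1 values were 0.11 (adjusted p = 0.269) and 0.15 (0.0831), and the latter was called without untransfected replicate 3 (0.22, 0.0159). Hand2 rose with DiCas7-11 NTG, to 410, 394 and 397 CPM (0.13 ± 0.02, adjusted p = 3.22e-04, edgeR). It was at 386, 383 and 383 CPM with RfxCas13d (0.07, adjusted p = 0.0674) and 378, 376 and 362 CPM with HiFi-RfxCas13d (0.02, 0.536). Mycn, Gata2, Gata3 and Myc passed in none of the NTG comparisons, with log2 fold changes of −0.06 to −0.01 for Mycn, 0.30 to 0.39 for Gata3 and 0.05 to 0.09 for Myc. Gata2 was at 0.09 and 0.02 with RfxCas13d and HiFi-RfxCas13d and at −0.11 with DiCas7-11. The DiCas7-11 value of Gata2 was called without a filter on low counts (adjusted p = 0.0164) or without DiCas7-11 NTG replicate 1 (−0.17, 0.0474), and that of Myc with HiFi-RfxCas13d without untransfected replicate 3 (0.12, 0.0242).

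For the mATXN2-targeting crRNA against the NTG crRNA, with the plasmid and effector held constant, no member was called with any effector. The genome-wide share called was 1.39% with RfxCas13d, 0.295% with HiFi-RfxCas13d and 0.942% with DiCas7-11, so the count of 0 of 7 lies near the background. Over the 21 tests the log2 fold changes ran from −0.17 to 0.10 and the adjusted p from 0.279 to 0.997 (edgeR). At an unadjusted p below 0.05 there were 0, 0 and 2 members, the latter being Phox2a at 0.10 ± 0.04 (adjusted p = 0.279) and Myc at −0.07 ± 0.03 (adjusted p = 0.320) with DiCas7-11. DESeq2 and limma-trend likewise called 0 members in each of these comparisons.

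The width of the intervals differed between members. For Hand2, Gata2, Myc, Phox2a and Isl1 the 95% intervals of the crRNA effect stayed between −0.19 and 0.19 on the log2 scale. With Mycn included they reached −0.36 and 0.24, and with Gata3, the least abundant tested member, −0.60 and 0.39. Hand2 with RfxCas13d (390, 390 and 387 CPM against 386, 383 and 383) did not overlap between arms, but the difference was 0.02 and 20.2% of genes were separate in that comparison. Myc with HiFi-RfxCas13d and Phox2a with DiCas7-11 were separate too, in comparisons where 13.2% and 14.5% of genes were. Whether the crRNA effect differed between effectors was tested as an interaction. No member was called in any of the 3 interactions, in which 0 of 13901 genes passed in edgeR and 855, 1084 and 1028 had an unadjusted p below 0.05 (DESeq2 called 0, 7 and 3 genes and no member). The member values there ran from −0.18 to 0.16, and the lowest adjusted p of a member was 0.779.

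Between effectors, over both crRNA arms together (6 libraries against 6), Hand2 gave the clearest pattern. Its 6 DiCas7-11 libraries held 394 to 410 CPM, the 6 RfxCas13d libraries 383 to 390 CPM and the 6 HiFi-RfxCas13d libraries 362 to 383 CPM, so each set lay above the next with no overlap, although the lower pair of sets touched at 383 CPM. Separation of this kind was found for 3.67% of genes between DiCas7-11 and RfxCas13d, 2.72% between DiCas7-11 and HiFi-RfxCas13d and 2.22% between HiFi-RfxCas13d and RfxCas13d. Hand2 was higher with DiCas7-11 than with HiFi-RfxCas13d by 0.11 ± 0.02 (adjusted p = 1.68e-04, edgeR), in a comparison that called 7.05% of genes.

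Against RfxCas13d it was higher by 0.06 ± 0.02 (adjusted p = 0.0370), where 11.4% of genes were called. The Hand2 value of HiFi-RfxCas13d minus RfxCas13d was −0.05 ± 0.02 (adjusted p = 0.109), where 3.33% of genes and no member passed. Phox2a was at −0.10 ± 0.03 there (adjusted p = 0.0766, edgeR). Over 20 alternatives Phox2a was called in 4 and Hand2 in 1. Gata2 was lower with DiCas7-11 than with RfxCas13d by −0.13 ± 0.04 (adjusted p = 0.0407), at 197 to 225 CPM against 219 to 250 CPM, with overlap. Both calls against RfxCas13d were near the threshold. Over the alternatives the adjusted p of Hand2 ran from 0.0226 to 0.0981 and that of Gata2 from 1.07e-06 to 0.115, and both calls were lost without RfxCas13d NTG replicate 1, RfxCas13d mATXN2 replicate 1 or 3, or DiCas7-11 mATXN2 replicate 2 or 3. Phox2a was called in this comparison without RfxCas13d NTG replicate 1 (−0.09, adjusted p = 0.0495) and Mycn without DiCas7-11 NTG replicate 1 (−0.20, adjusted p = 0.0495). Isl1, Gata3 and Myc were called in no comparison between effectors.

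Around the members, lists of related genes were read in the same fits. Their counts in the RfxCas13d, HiFi-RfxCas13d and DiCas7-11 NTG groups against untransfected cells stand beside 11.3%, 20.9% and 21.9% of all tested genes called, and those with the ASO beside 42.7%. For the mATXN2-targeting crRNA the shares were 1.39% with RfxCas13d, 0.295% with HiFi-RfxCas13d and 0.942% with DiCas7-11. The MYC proteins act with partners and antagonists, of which 21 were tested. With the mATXN2-targeting crRNA 3 of the 21 rose and none fell with every effector, and they were the same 3 genes: Trrap (0.38, 0.40 and 0.38 with RfxCas13d, HiFi-RfxCas13d and DiCas7-11), the MYC-recruited scaffold of histone acetyltransferases; Ep400 (0.29, 0.27 and 0.24), a chromatin remodeller of the same complexes; and Huwe1 (0.27, 0.30 and 0.20), a ubiquitin ligase that acts on MYC proteins. The adjusted p of these 9 values ran from 4.07e-04 to 0.0361. They are long transcripts, with a longest annotated form of 12479 bases for Trrap, 10685 for Ep400 and 14579 for Huwe1, and the part of length in the result was not tested. Mga, of the same list and with a longest form of 13931 bases, was not called. Its NTG and mATXN2 means were 135 and 134 CPM with RfxCas13d, 136 and 145 with HiFi-RfxCas13d and 141 and 141 with DiCas7-11. With the ASO Trrap, Ep400 and Huwe1 rose by 0.36, 0.28 and 0.28. The list's medians in the crRNA comparisons were 0.02, −0.004 and 0.02.

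With the ASO 11 of the 21 rose and 1 fell, with a median of 0.13, and in the RfxCas13d, HiFi-RfxCas13d and DiCas7-11 NTG groups 3, 6 and 5 rose and 1, 1 and 2 fell, beside the shares over all genes just given. Mga and Mxd4, which pair with MAX and compete with MYC, rose by 0.47 (adjusted p = 5.05e-09) and 0.56 (0.00682), and Mxi1, another such antagonist, fell by 0.47 (7.58e-09). Max itself was higher compared to untransfected cells by 0.14, 0.16 and 0.20 in the RfxCas13d, HiFi-RfxCas13d and DiCas7-11 NTG groups (adjusted p = 0.0265, 0.00818 and 9.66e-04), and Fbxw7, the ubiquitin ligase subunit that marks MYC and MYCN for decay, was higher by 0.33, 0.31 and 0.39 (adjusted p = 8.11e-05, 8.39e-05 and 3.89e-06, edgeR).

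Of 19 tested textbook targets of MYC, mostly nucleolar and biosynthetic genes, 8, 12 and 12 rose and none fell in the RfxCas13d, HiFi-RfxCas13d and DiCas7-11 NTG groups compared to untransfected cells, with medians of 0.09, 0.14 and 0.15 beside −0.005, −0.005 and −0.006 over all genes. Dkc1, which modifies ribosomal RNA and telomerase RNA, rose by 0.20, 0.25 and 0.30 (adjusted p = 1.17e-04, 3.51e-06 and 1.64e-07), and the nucleolar GTPase gene Gnl3 by 0.20, 0.23 and 0.29 (adjusted p = 0.00200, 1.93e-04 and 7.24e-06). With the ASO 9 rose and 2 fell, and Ldha, which makes lactate, fell by 0.27 (adjusted p = 1.93e-06). In these 4 comparisons neither Myc nor Mycn was called higher, as given above. With the mATXN2-targeting crRNA 3 targets rose with RfxCas13d (Cad, 0.19, adjusted p = 3.70e-04; Nme1, 0.15, 0.00521; Nme2, 0.14, 0.0123) and none passed with the other effectors.

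The partners of GATA, HAND and LIM factors were tested for 9 of 12 genes, and 4, 3 and 3 were called in the RfxCas13d, HiFi-RfxCas13d and DiCas7-11 NTG comparisons and 5 with the ASO, where 42.7% of all genes were. With the mATXN2-targeting crRNA 1 was called, Tcf4, a bHLH partner, which fell by 0.09 with RfxCas13d (adjusted p = 0.0241). Lmo4, a LIM-only adaptor that competes with LIM-homeodomain factors such as ISL1 for LDB1, rose in the 3 NTG groups (0.36, 0.38 and 0.32) and by 0.51 with the ASO (adjusted p = 7.83e-06, 2.18e-06, 2.68e-05 and 4.77e-10). Rlim, a ubiquitin ligase of the same complexes, rose by 0.15, 0.18, 0.22 and 0.31 (adjusted p = 0.0360, 0.00580, 9.46e-04 and 1.19e-06). Among 16 tested core factors and lineage regulators outside the members, none passed with the mATXN2-targeting crRNA for any effector, 3, 4 and 6 passed in the NTG groups and 9 with the ASO (5 higher, 4 lower), beside 11.3%, 20.9%, 21.9% and 42.7% of all genes. Tbx2, a T-box factor of the same circuit, rose by 0.39, 0.48 and 0.43 in the NTG groups and by 0.71 with the ASO (adjusted p = 9.32e-05, 2.59e-06, 1.14e-05 and 7.57e-11).

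The genes that these factors serve in the noradrenergic neuron were unevenly present. Th, the rate-limiting enzyme of catecholamine synthesis, stood at 0.476 to 1.44 CPM, Dbh at 1.86 to 3.96 CPM and the noradrenaline transporter gene Slc6a2 at no more than 0.138 CPM, while the receptor gene Ret stood at 554 to 684 CPM and the granule protein gene Chgb at 821 to 1045 CPM. With the mATXN2-targeting crRNA none of the 13 tested genes of noradrenaline production and release passed with any effector, and 2, 4 and 3 passed in the NTG groups, where 11.3%, 20.9% and 21.9% of all genes did. With the ASO 2 rose and 7 fell, with a median of −0.16, beside 42.7% of all genes called. Slc18a2, the vesicular monoamine transporter, fell by 0.45 (adjusted p = 8.75e-08) and Chgb by 0.29 (2.15e-08), and Slc18a1 rose by 1.15 (0.0104) from 0.648 to 1.48 CPM. The summed neuronal markers were lower in the same comparison, as given above, and their part in the result was not tested. Of 5 tested family relatives of the members none passed with a crRNA or an NTG plasmid, and Gata4 rose with the ASO (0.19, adjusted p = 0.00195). Lhx3 was at a mean of 0.0799 CPM in untransfected cells and 0.571 CPM with the ASO, and since it passed the filter through the ASO libraries alone, its call in that comparison is not counted.

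**Figure D4:**
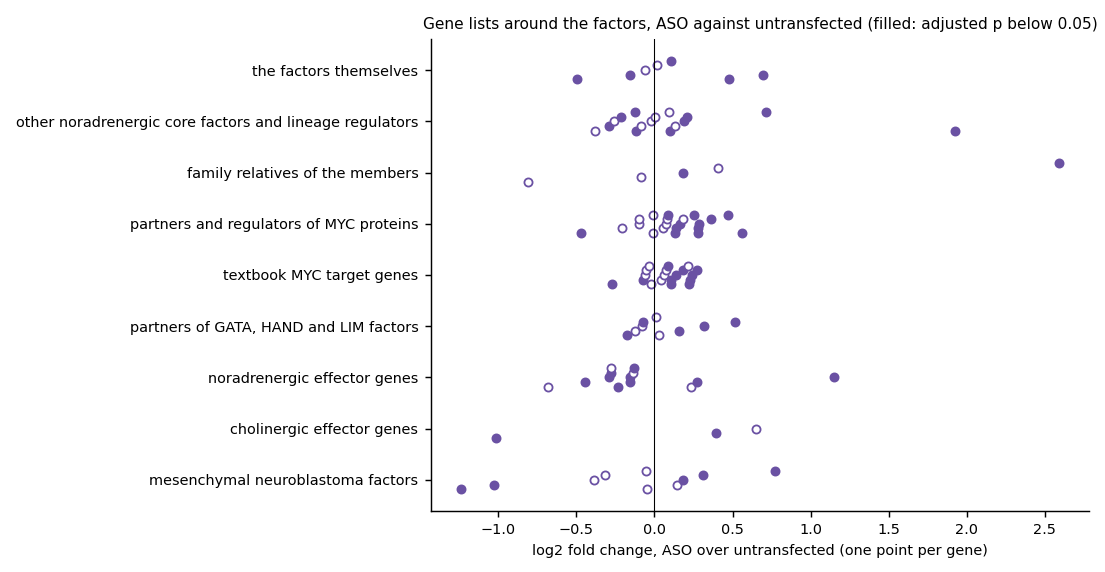
Log2 fold change with the ASO over untransfected cells (x axis) for the tested members (top row) and for each related gene list, 1 point per gene, filled where the adjusted p was below 0.05. Points of MYC partners lie mostly right of 0 (11 called higher, 1 lower) and those of noradrenergic effector genes mostly left (2 higher, 7 lower), and the point farthest right is Lhx3, at under 1 CPM.

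The genes whose levels followed each member most closely across the 24 libraries were sought among 10912 genes with a mean of at least 50 counts. The correlations are of log2 CPM, are given as a description, and share the group differences and the depth of the libraries. For Mycn they were Slc16a3, a lactate transporter gene (r = 0.88), and P4ha1, a collagen prolyl hydroxylase gene (r = 0.85). For Isl1 they were Snhg15 (r = 0.89) and Trmt6 (r = 0.88), for Myc Ptges3 (r = 0.87) and Hnrnpd (r = 0.85), and for Gata2 Phlda1 (r = 0.86) and Sdcbp (r = 0.84). For Hand2 they were Atmin (r = 0.84) and Zkscan5 (r = 0.81), and for Phox2a Cotl1 (r = 0.82) and Nectin2 (r = 0.81). Gata3, the least abundant tested member, reached r = 0.71 with Gm16973 and with Zbtb7a. No member was among the nearest genes of another. Between members, the values over all libraries ran from −0.61 for Mycn and Isl1 to 0.61 for Gata3 and Isl1. After the group means were taken out those pairs stood at 0.26 and 0.15.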

How the data were processed

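RNA-seq libraries of 24 Neuro2A samples (stranded mRNA kit, single-end, 101 cycles) were processed by the authors using Salmon 1.5.2 against a GRCm39 transcriptome with sequence and GC bias correction, and the deposited values are estimated counts per gene (tximport, length-scaled TPM method), not normalized between samples. Here they were rounded and tested with edgeR 4.0.16 in R 4.3.3 (TMM normalization, quasi-likelihood F test, 1 model of the 8 groups), after dropping genes that did not reach 0.5 CPM in 3 or more samples. Benjamini-Hochberg adjustment was made over 13901 genes within each of 10 comparisons and 3 interactions, with a threshold of 0.05. Limma-trend 3.58.1 on log2 CPM with the adjustment over the 10 comparisons together, close to the authors' procedure, DESeq2 1.42.0, other normalization, filters, sample sets, a replicate block and leaving out each library were alternatives. The script was checked on simulated counts.

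The members and all gene lists were chosen with earlier results of these data known. Some genes are not reported here and were taken out of the lists. The 7 tested members were named in the ASO, NTG and crRNA comparisons, and values of only some of them were given between effectors. Of each list, the counts and at most the 3 called genes with the largest change per comparison were named, and a few more are named for their level alone. For each tested member the 2 genes of highest correlation were named. Totals were 12665725 to 22504999 counts per library. The limit taken from 3 counts covers counting error only.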

Additional observations from a re-analysis of the deposited data

How the results depend on the processing

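The 0 members called by the mATXN2-targeting crRNA with each effector, and the 0 called in each interaction, stayed at 0 under every alternative that could give them. All 5 calls with the ASO, and those of Phox2a and Hand2 in DiCas7-11 NTG, of Phox2a in HiFi-RfxCas13d NTG and of Hand2 between DiCas7-11 and HiFi-RfxCas13d, were kept in every alternative that tested the gene. Gata3 could not be tested at 5 CPM or more in 3 samples. No result changed direction. By level alone, without the length correction, Gata2 ranked 2 and Myc 3 among the members. The number of members called for HiFi-RfxCas13d NTG against untransfected cells went from 2 to 1 when only those samples were fitted. Between HiFi-RfxCas13d and RfxCas13d it went from 0 to 2 with limma-trend and to 1 with edgeR, both adjusted over the 10 comparisons. Between DiCas7-11 and RfxCas13d it went from 2 to 1 without a filter, with DESeq2 and with only the samples compared, and between DiCas7-11 and HiFi-RfxCas13d from 1 to 2 without a filter. Leaving out 1 library at a time gave 1 to 3 for HiFi-RfxCas13d NTG against untransfected cells, 2 to 3 for DiCas7-11 NTG and 5 to 6 with the ASO against the same cells, 0 to 1 between HiFi-RfxCas13d and RfxCas13d and 0 to 2 between DiCas7-11 and RfxCas13d, for which the cause was not tested. The rise of Isl1 in HiFi-RfxCas13d NTG, and the Hand2 and Gata2 differences between DiCas7-11 and RfxCas13d, were the calls lost when single libraries were left out, and Myc (with the ASO or HiFi-RfxCas13d NTG), Isl1 and Gata2 (with DiCas7-11 NTG) and Phox2a and Mycn (between effectors) were gained in some. Over all genes, the calls of the crRNA comparisons with RfxCas13d, HiFi-RfxCas13d and DiCas7-11 (193, 41 and 131) depended far more on the setting: they were 434, 201 and 366 without a filter, 615, 230 and 541 with limma-trend and 584, 233 and 549 with edgeR, both adjusted over 10 comparisons, and 355, 91 and 1 with only the samples compared. DESeq2 gave 65 with HiFi-RfxCas13d and 269 with DiCas7-11. Leaving out 1 library gave 49 to 143, 21 to 27 and 15 to 621, the last without DiCas7-11 NTG replicate 1. Between HiFi-RfxCas13d and RfxCas13d the 463 calls became 705 without a filter, 775 with limma-trend, 774 with edgeR over 10 comparisons and 239 to 460 without 1 library. For DiCas7-11 NTG against untransfected cells the 3044 calls became 1800 with only those samples, and for RfxCas13d NTG 1565 became 1014 without RfxCas13d NTG replicate 1. The interactions gave 84, 72 and 80 calls without a filter.

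Replicate numbers are shared by all groups, but over all tested genes the same-numbered samples did not deviate together. The correlation of their deviations had a median of 0.00504 over 84 pairs and reached at most 0.0813. A correlation over all genes cannot show whether a subset of them deviates together. For 76 genes, Gata2 among them, 1 number was highest in all 8 groups. With the replicate number as a block the members called went from 0 to 2 for RfxCas13d NTG against untransfected cells (Hand2, adjusted p = 0.0442, and Gata2, 0.0346) and from 1 to 2 between DiCas7-11 and HiFi-RfxCas13d (Gata2 added, 0.00682). In the replicate block Gata2 was also called in DiCas7-11 NTG (−0.10, adjusted p = 0.00904) and Myc in HiFi-RfxCas13d NTG (0.09, adjusted p = 0.0313), and over all genes RfxCas13d NTG against untransfected cells gave 1821 calls in place of 1565. The block gave 292 and 251 calls for the crRNA with RfxCas13d and DiCas7-11 in place of 193 and 131, and 4 in 1 interaction.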

Other observations

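Among factors of the mesenchymal neuroblastoma state, the alternative to the noradrenergic one, 10 of 22 genes passed the filter, and levels over the list were uneven. Twist1 was at 0 in every library and Prrx1 and Yap1 were at a mean of 0.00288 and 0.00255 CPM. Sox9, Fosl2, Id1, Notch2, Six4 and Wwtr1 had means of 50.9, 42.0, 39.5, 27.4, 25.7 and 23.2 CPM. Of the 10, none passed with the mATXN2-targeting crRNA for any effector. With the ASO 3 rose and 2 fell, beside 42.7% of all tested genes called, among them Id1, an inhibitor of bHLH factors, which rose by 0.77 (adjusted p = 1.16e-10, edgeR), and the Hippo coactivator gene Wwtr1, which fell by 1.24 (7.09e-11). Id1 was also higher in the RfxCas13d, HiFi-RfxCas13d and DiCas7-11 NTG groups, by 0.63, 0.69 and 0.66 (adjusted p = 1.48e-07, 2.79e-08 and 5.65e-08). Of 6 cholinergic genes 3 were tested. Ache, which degrades acetylcholine, fell by 1.01 with the ASO (adjusted p = 1.49e-07), by 0.46 with HiFi-RfxCas13d NTG (0.00780) and by 0.67 with DiCas7-11 NTG (3.27e-04), and the nicotinic receptor gene Chrna3 rose by 0.39 with the ASO (1.36e-08).

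Gata2 was highest in the library numbered 1 in all 8 groups (219 to 250 CPM in the libraries numbered 1, over the 8 groups), a pattern noticed after its values were seen. Of 13901 genes, 76 (0.547%) had 1 replicate number highest in all 8 groups, and for 68 of them that number was 1, against 5 for number 2 and 3 for number 3. Phlda1, the gene closest to Gata2 over the 24 libraries, the GATA cofactor gene Zfpm1 and the neurotrophin receptor gene Ngfr were among the 76. What the number 1 libraries share is not given in the labels and was not tested. The other tested members had 1 number highest in 3 to 6 of the 8 groups.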
